A study of Mus musculus with 2 samples.

Results

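Distant intergenic peaks are regions enriched for N6-methyladenosine (m6A) that lie away from every annotated gene. They were taken by position alone, on autosomes 1 to 19, from the summit, the single base that the peak list marks in each peak. A peak was a member when its summit fell outside every mm10 RefSeq gene span of any biotype. The summit also had to lie more than 5000 bases from the nearest span end. The rule found 1808 members among 37173 autosomal peaks (4.86%), of 38366 peaks in the whole list. For comparison, 1320 autosomal peaks (3.55%) were intergenic but within 5 kb of a span, and 34045 (91.6%) had their summit inside a span.

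The peaks came from whole uterus of C57BL/6 mice, described as wild-type, by immunoprecipitation (IP) of RNA with an anti-m6A antibody followed by sequencing. The m6A library is labelled as equal parts of uterus from gestation day 4 and day 8, and the input library as whole uterus with no antibody and no day. The sources used here do not give ages, the number of animals or whether embryos were included. Each group held 1 library, so nothing below has a replicate check, differences between classes of peaks are described without a test, and the 2 days cannot be told apart. All 28 listed autosomal markers of smooth muscle, stroma and endothelium had a summit inside their span, against 57.2% of autosomal protein-coding genes. The list was chosen with earlier results of these data known, and expression and gene length were not matched. The tissue content therefore cannot be read from these shares. In this bulk tissue, more cells of a type and more RNA per cell cannot be told apart.

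As background, m6A is placed on adenosines of nascent RNA by a complex built around Mettl3 and Mettl14, and in mRNA it is best known in long exons and near stop codons. The mark also occurs on long non-coding RNA and on RNA made from enhancers and retroelements. RNA from outside annotated genes can stem from such units, from genes missing from an annotation, or from transcription that runs past the annotated 3′ end of a gene. Which of these the distant peaks belong to was not tested.

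Distant peaks were thinly covered, although their fold enrichment as deposited was like that of other peaks. The median distant summit carried 11 IP fragments, with quartiles of 8 and 19 and a range of 4 to 168. Peaks within 5 kb had a median of 14 and peaks inside spans a median of 31. The local background, the caller's estimate from the input and the genome-wide level, had a median of 0.618 scaled fragments at distant summits, 1.24 within 5 kb and 3.71 inside spans. The authors' fold enrichment, the ratio of IP to local background at the summit with 1 fragment added to both terms, was nearly the same in the 3 classes. Its medians were 6.18 at distant peaks, 6.16 within 5 kb and 6.12 inside spans. The added fragment lowers the ratio most where the background is low, as at distant summits. Like folds therefore do not mean like ratios without the added fragment. The distant folds ran from 2.004 to 72.3, with quartiles of 5.37 and 8.21.

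Enrichment of at least 10-fold was reached by 254 distant peaks (14.05%), where 14.8% of all autosomal peaks reached it. A −log10 q of at least 5, a stricter score than the list's own limit, was reached by 1502 distant peaks (83.1%), where 89.1% of all autosomal peaks reached it. Both shares stood near or below those of all peaks. Low depth was more frequent: 838 distant peaks (46.3%) rested on 10 fragments or fewer, against 10.5% of peaks inside spans.

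The input gave little local information at many of these regions. At 709 distant summits (39.2%) the background stood at the genome-wide floor of 0.462 fragments, against 19.2% within 5 kb and 5.12% inside spans. Among peaks at this floor, the median depth was 8 fragments in all 3 classes and the median fold 6.16. At this fixed background the fold follows from the depth alone, so the equal folds add nothing to the equal depths. The list's own score limit also sets the lowest depth that is kept, so likeness of the classes was not tested. Folds at the floor rest on almost no input, and the intervals given below cover counting error of the IP fragments only.

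Distant peaks were also narrow. Their median width was 247 bases, with quartiles of 205 and 397.5, against 299.5 bases within 5 kb and 341 inside spans. The narrowest width in the list, exactly 200 bases, was found at 286 distant peaks (15.8%) and at 5.89% of peaks inside spans. At least 1000 bases were covered by 63 distant peaks (3.48%), against 10.6% inside spans. Width went along with depth. Among peaks of 8 to 12 fragments, the median widths were 222 bases for 706 distant peaks, 230 within 5 kb and 234 inside spans. In all, the distant peaks covered 655.5 kb, or 3.51% of the bases and 2.10% of the summit fragments of autosomal peaks.

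**Figure D1:**
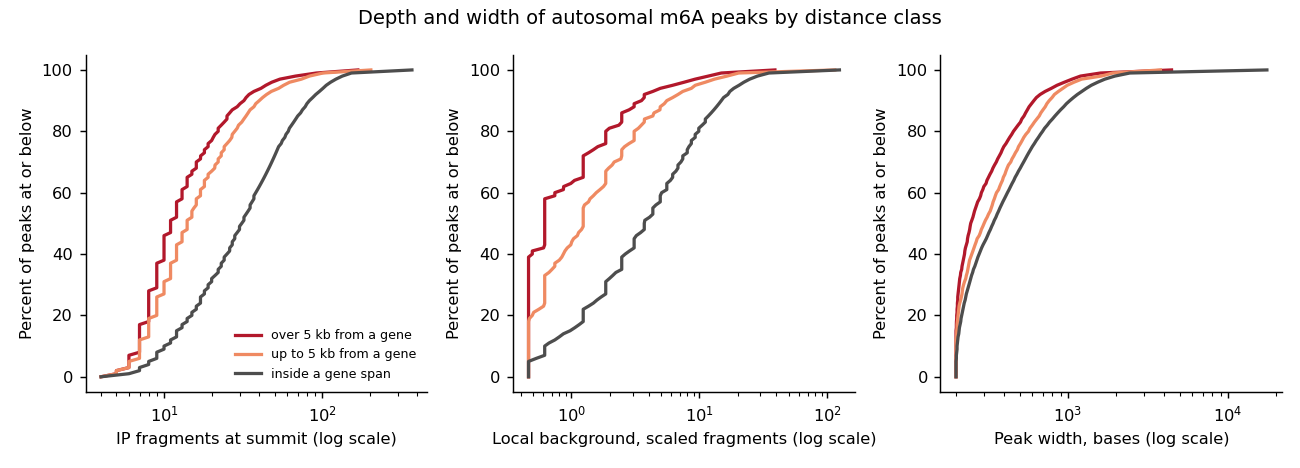
Cumulative percent of peaks (vertical axis) against IP fragments at the summit, local background and peak width (horizontal, log scales) for the 3 classes of autosomal peaks. The distant curve lies to the left in each panel, with medians of 11 fragments, 0.618 background fragments and 247 bases against 31, 3.71 and 341 inside gene spans.

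Peaks grew rarer with distance from genes. Distant summits lay a median of 16477 bases from the nearest span end, with quartiles of 8879.8 and 40715 and a maximum of 502842. Density was counted per megabase (Mb) of sequence between the first and the last gene of each autosome, which leaves out 7 distant peaks beyond the terminal genes. It fell from 28.7 peaks per Mb inside spans to 5.47 within 5 kb, 3.57 at 5 to 10 kb, 2.43 at 10 to 20 kb, 1.51 at 20 to 50 kb, 1.18 at 50 to 100 kb and 0.912 beyond 100 kb. Over all distant sequence, 974.6 Mb, the density was 1.85 per Mb.

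Median depth, width and fold changed little with distance, while the share of peaks at the background floor rose. The median depth was 12 fragments at 5 to 10 kb and 10 beyond 100 kb, and the median width 257 and 239 bases. The share at the background floor was 34.0% at 5 to 10 kb and 49.1% beyond 100 kb. Median fold stayed between 6.16 and 6.80 over the 5 distance ranges. Just inside the limit, a peak 5018 bases before Zmiz1, which encodes a transcriptional coregulator, had 12 fragments and 8.04-fold enrichment. Just outside the limit, a peak 4999 bases past the zinc finger gene Zfp119a had 16 fragments and 8.34-fold enrichment, and a peak 4992 bases past Rrp1b, a nucleolar protein gene, had 9 fragments and 6.84-fold enrichment.

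Distant peaks lay more often past the 3′ end of the nearest gene than before its 5′ end, and this was strongest at 5 to 10 kb. Where the strand of the nearest gene was known, 570 lay on the 3′ side and 375 on the 5′ side (60.3% on the 3′ side), and for 863 members it was not given. At 5 to 10 kb there were 239 against 110 (68.5%), which is 5.59 peaks per Mb of 3′ sequence and 2.64 per Mb of 5′ sequence, a ratio of 2.12. At 10 to 20 kb the ratio was 1.23 (152 and 117 peaks), and at 20 to 50 kb it was 0.897 (94 and 93 peaks). Within 5 kb, where summits are not members, the densities of 6.65 and 6.41 per Mb gave a ratio of 1.04. Beyond 100 kb the ratio was 1.42, from only 39 and 21 peaks. In a further setting, only the distant peak of highest fold in each gap between neighbouring genes was kept. Of the 250 such peaks at 5 to 10 kb with a known strand, 66.4% lay on the 3′ side. The split by side was not planned, and this setting was added after the data were seen. The peaks share 1 library and many share a gene, so no test of the sides was made.

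**Figure D2:**
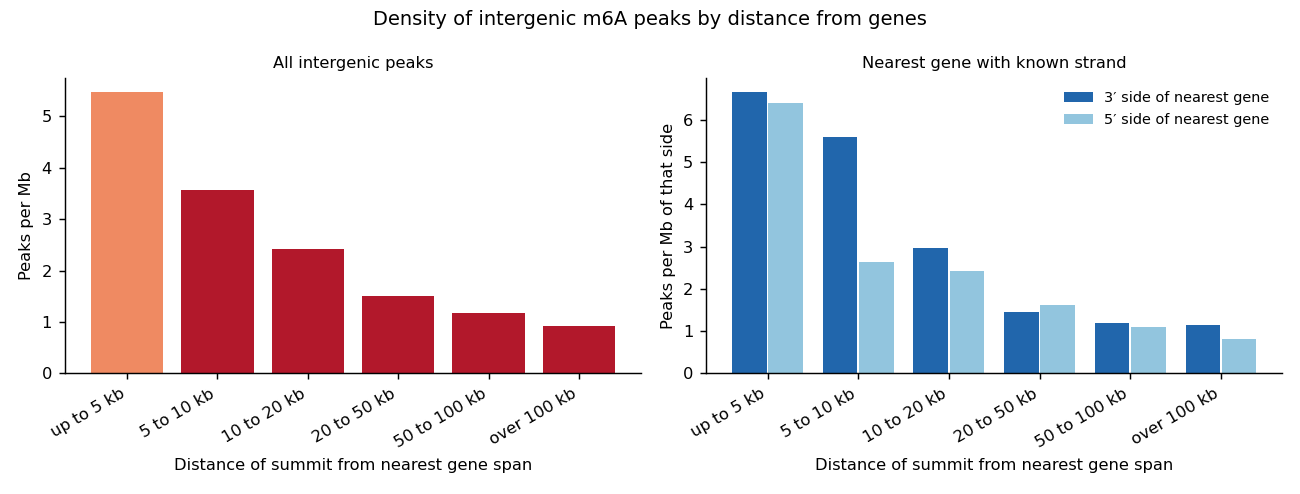
Left, peaks per Mb of intergenic sequence (vertical axis) by distance of the summit from the nearest gene span. Right, the same split by side for nearest genes of known strand. Density falls from 5.47 to 0.912 per Mb, and the 3′ bar exceeds the 5′ bar most at 5 to 10 kb (5.59 against 2.64).

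Peaks on the 2 sides had similar depth and width. Median depth was 11 fragments on either side, and median width 263.5 bases on the 3′ and 252 on the 5′ side. The nearest gene itself held a summit for 51.1% of 3′ peaks and 42.1% of 5′ peaks. With a protein-coding nearest gene these shares were 70.0% of 347 peaks and 60.0% of 235 peaks. The share of all autosomal protein-coding genes with a summit was 57.2%, and the lengths of the genes were not matched. That is a share of genes, while the peaks lay nearest to 233 and 168 genes and a gene beside several peaks counts for each.

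The nearest gene was protein-coding for 745 distant peaks (41.2%), a long non-coding RNA for 465 (25.7%) and a pseudogene for 460 (25.4%). Over all biotypes, 647 members (35.8%) had a nearest gene that held a summit, against 30.5% of autosomal genes. The first is a share of peaks and the second a share of genes. All members together had 1271 nearest genes, so a gene beside several peaks counts for each of them. Small RNA genes were the nearest feature for few: 57 peaks lay nearest to a snoRNA, 34 to an snRNA and 19 to a miRNA gene. None of these small RNA genes held a summit, and few do anywhere on the autosomes: 0.549% of snoRNA, 1.19% of snRNA and 0.968% of miRNA genes.

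Some distant peaks formed an unbroken run with peaks inside genes. By steps of at most 5 kb over all autosomal peaks, 27 (1.49%) were linked to a summit inside a span. The step equals the distance limit, so no member could reach such a summit directly. Each link needed a further peak within 5 kb of the span, so the rule itself keeps this share low and linked peaks close to genes. The 27 linked peaks lay nearest to 16 genes, 23 of them on the 3′ side, 2 on the 5′ side and 2 at genes of unknown strand. Their median depth was 16 fragments, against 11 for the others, and their median width 419 bases against 247. The runs with the most distant peaks, chosen after their values were seen, held 6 each. One followed the zinc finger gene Zfp971 on chromosome 2, with peaks 6856 to 12547 bases past the gene, of 3.83-fold to 9.62-fold and 16 to 30 fragments. The other lay between Slc8a3 and Gm20498 on chromosome 12 (81345856 to 81353683), with 3.17-fold to 7.27-fold enrichment and 7 to 18 fragments. The deepest pair lay past the histone gene H4c17 on chromosome 13, with 92 and 62 fragments and 10.4-fold and 3.98-fold enrichment. Zinc finger and histone genes have close copies, and the sources used here do not say how reads with several matches were treated.

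More than 1 member in 3 lay in a cluster. Summits at most 5000 bases apart were chained, which put 655 distant peaks (36.2%) into 240 clusters of 2 or more and left 1153 single. The same chaining gave 34.5% for peaks within 5 kb and 57.8% inside spans, where peaks are far denser. There were 147 clusters of 2, 54 of 3, 20 of 4 and 19 of 5 or more. The median cluster was 2095 bases long, with quartiles of 1400 and 4051 and a maximum of 17093. The step between neighbours decides much of this: 17.6% were clustered at a step of 1000 bases and 49.4% at 50000. No cluster reached 5 peaks at the 1000-base step.

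Clustered peaks were deeper than single ones. Median depth was 10 fragments for single peaks, 13 in clusters of 2 to 4 and 16 in clusters of 5 or more. Median width rose in the same order, 229, 327.5 and 389 bases, while median fold did not, at 6.26, 6.16 and 5.96. The background floor held 51.1% of single peaks, 21.6% of those in clusters of 2 to 4 and 3.36% of those in clusters of 5 or more. Local background was thus higher where peaks clustered, with medians of 0.462, 1.24 and 1.85 fragments. The fragment added to both terms of the fold therefore lowers it most in single peaks. The share on the 3′ side was 57.3% of single peaks, 68.0% in clusters of 2 to 4 and 55.3% in clusters of 5 or more, so it had no order by cluster size.

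**Figure D3:**
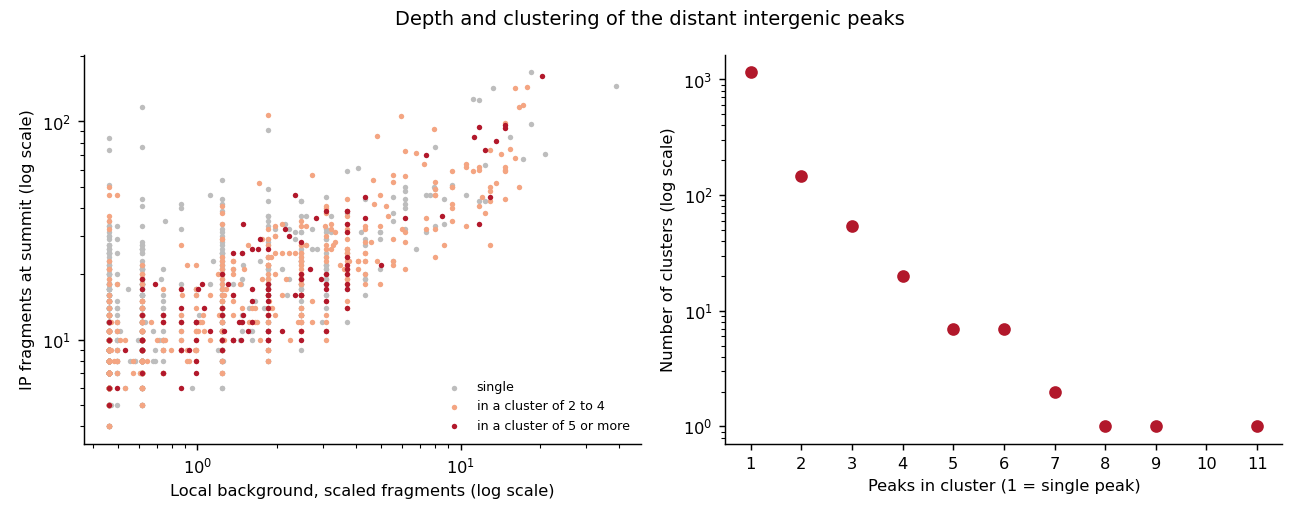
Left, IP fragments at the summit against local background (both log scales) for each distant peak, coloured by cluster size. Right, the number of clusters (log scale) by the number of peaks in them. Single peaks crowd the background floor of 0.462, and cluster numbers fall from 1153 single peaks to 1 cluster of 11.

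The largest cluster lay in the prolactin gene family on chromosome 13. It held 11 peaks over 17093 bases (27359530 to 27376622), between Prl8a2 (NCBI Gene 13529), which encodes a decidual prolactin-related protein, and Prl2b1 (NCBI Gene 66392). The highest peak, at 27359530 to 27360899 and 5615 bases from Prl8a2, was 10.5-fold enriched (95% Poisson interval 7.27 to 14.7) from 32 fragments. The lowest, at 27370158 to 27370845, was 2.94-fold enriched (1.59 to 5.06) from 11 fragments. Most peaks near Prl8a2 were deeper: the 7 whose nearest gene was Prl8a2 had 10 to 39 fragments, with a median of 25. The 4 nearest to Prl2b1 had 7 to 11, with a median of 10. Prl8a2 held 2 summits of its own and Prl2b1 held none.

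The wider prolactin locus was dense in distant peaks as a whole. Prolactin hormones of this family are made by decidua and placenta in rodents. From the first to the last gene of the family on this stretch (27094189 to 28151595), 27 of 41 peaks were distant, 9 lay within 5 kb of a span and 5 lay inside one. All 27 fell between a pair of prolactin genes, in 5 gaps, and 25 of them were clustered. They had a median of 17 fragments, with a range of 7 to 59, and a median width of 460 bases. Their folds ran from 2.94 to 11.1 with a median of 5.31, and the 5 peaks inside spans had a median of 62 fragments and 4.72-fold. Besides the 11 peaks between Prl8a2 and Prl2b1, 7 lay between Prl3d3, a placental lactogen gene, and Prl3c1, 4 between Prl3a1 and Prl6a1, 3 between Prl3c1 and Prl3b1, and 2 between Prl3d2 and Prl3d3. Prl3c1, which is expressed in decidua, held 2 summits, while only 3 of the 22 prolactin genes on this stretch held any. The family arose by duplication, so reads of its copies can be hard to place. Elsewhere on chromosome 13, the Prl2c genes, which encode proliferins, also bordered gaps with many distant peaks, 5 between Gm7042 and Prl2c3, 7 between Prl2c3 and Gm18262 and 5 between Gm40904 and Prl2c2. Prl2c3 and Prl2c2 held no summit, and the last of these gaps held the lowest fold of all distant peaks, 2.004.

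Chromosome 13 had the most distant peaks of any autosome, 156, and the highest density, 3.07 per Mb, where the autosomes ranged from 1.19 to 3.07 with a median of 1.81. Without the 27 peaks between prolactin genes its density was 2.54 per Mb, below the 2.75 of chromosome 17. The median depth on chromosome 13 was 14.5 fragments, against 11 over all distant peaks.

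The next largest clusters lay in other surroundings. On chromosome 17, 9 peaks over 12023 bases (91562981 to 91575003) lay between the pseudogenes Gm6741 and Gm15403, 91903 bases from Gm15403 at the nearest and 324964 bases from Gm6741. They ran from 4.65-fold (2.85 to 7.20) at 91567625 to 91568250 to 8.23-fold (5.05 to 12.8) at 91565584 to 91566426, with 10 to 22 fragments. On chromosome 16, 8 peaks over 8249 bases (90910207 to 90918455) filled the gap between Eva1c and Cfap298, which point toward each other, so that all 8 lay on a 3′ side. They ran from 4.21-fold (2.28 to 7.25) at 90911090 to 90911366 to 10.03-fold (6.68 to 14.5) at 90910207 to 90910438. Both genes held summits, 6 in Eva1c and 3 in Cfap298. On chromosome 1, 7 peaks over 9163 bases (111313287 to 111322449) lay 163146 to 172104 bases before the long non-coding RNA gene 4921525D07Rik, which held no summit. They ran from 4.10-fold (1.79 to 8.67) at 111314216 to 111314533, with 5 fragments, to 12.4-fold (7.69 to 18.96) in a peak 2502 bases wide at 111315434 to 111317935, with 19 fragments. Clusters of 6 peaks numbered 7, and the deepest of these, 23245 to 29251 bases from Tmem64 on chromosome 4, had 22 to 162 fragments and 3.83-fold to 7.62-fold enrichment.

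**Figure D4:**
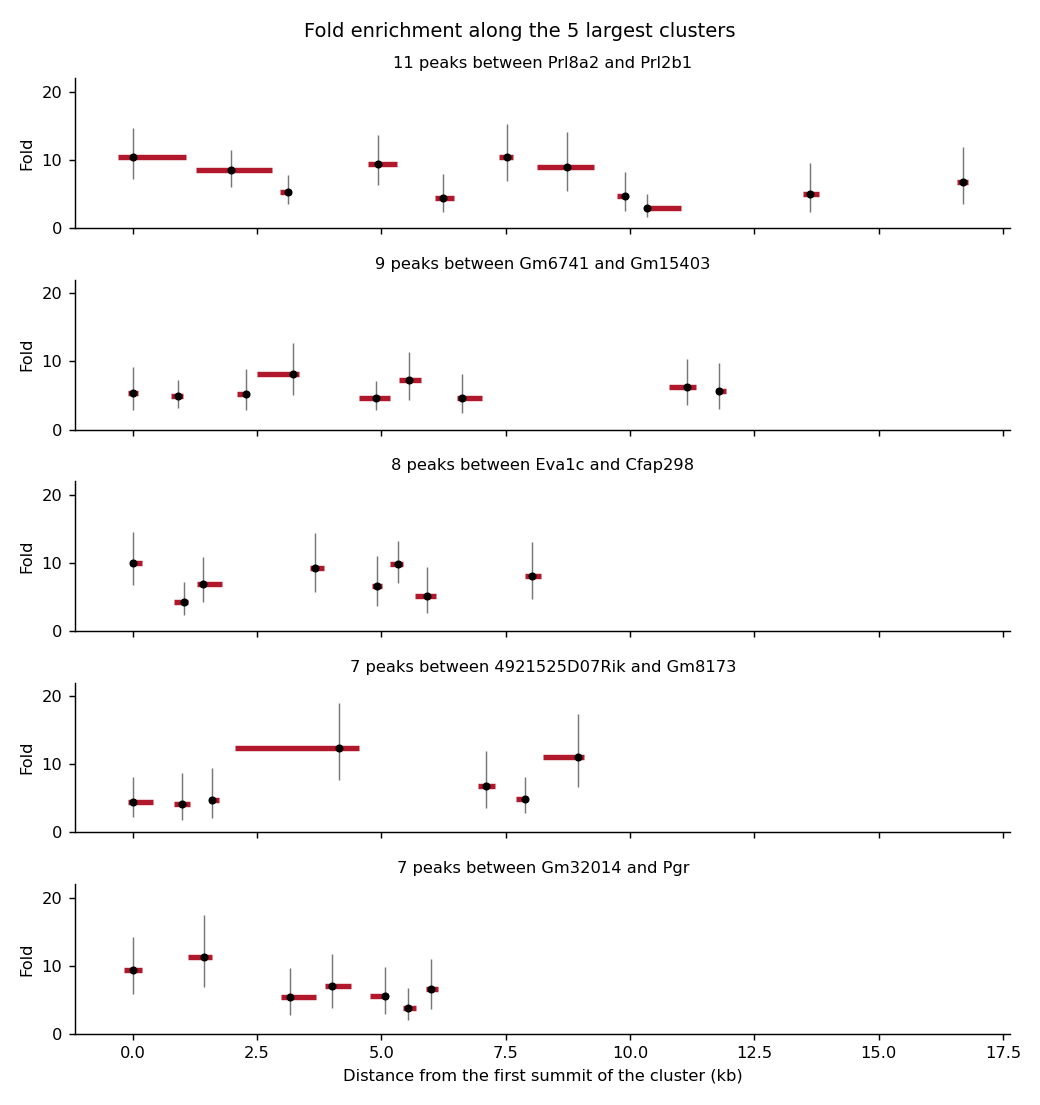
Fold enrichment (vertical axis) along the 5 largest clusters, with distance from the first summit in kb (horizontal axis). Bars span each peak, points mark summits and thin lines are 95% Poisson intervals. The 11 peaks between Prl8a2 and Prl2b1 reach furthest, and within each cluster most intervals overlap.

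The fifth cluster lay before Pgr, the gene of the progesterone receptor on which pregnancy depends (NCBI Gene 18667, chromosome 9, 8898900 to 8968611, plus strand). The gap between Pgr and the long non-coding RNA gene Gm32014 held 14 distant peaks, more than any other gap between genes. All lay on the 5′ side of Pgr, 8962 to 120901 bases before its span, and no listed peak lay closer. Pgr was the nearest gene of 12 of them. A cluster of 7 stood 47658 to 53660 bases away (8845063 to 8851383), from 3.86-fold (2.03 to 6.80) at 8850679 to 8850929 to 11.2-fold (6.90 to 17.4) at 8846361 to 8846828. A cluster of 5 stood 8962 to 20975 bases away. It held the highest of the 14, a peak 2374 bases wide at 8883569 to 8885942 with 46 fragments and 14.04-fold enrichment (10.4 to 18.6). The other 13 had 9 to 20 fragments. None of the 14 was linked by 5 kb steps to a summit inside Pgr, and with no peak closer than 8962 bases none could be. Pgr held 8 summits of its own, and Gm32014 held 6.

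**Figure D5:**
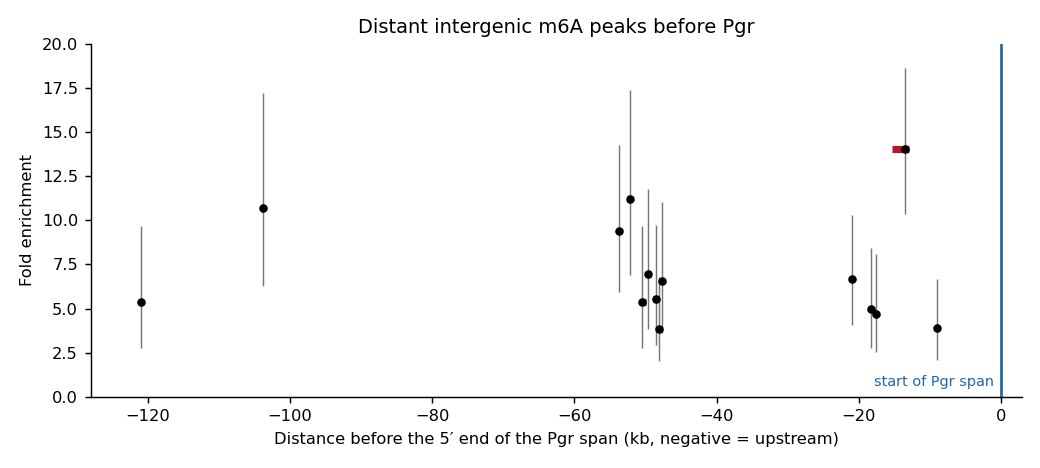
Fold enrichment (vertical axis) of the 14 distant peaks before Pgr against distance from the 5′ end of its span in kb (horizontal axis). Points mark summits, bars span the peaks and thin lines are 95% Poisson intervals. The peaks stand in a group of 7 about 50 kb away and a group of 5 from 8962 to 20975 bases, with 2 farther out.

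Other genes with many distant peaks nearest to them were Gm15403 with 13, Nav3 with 12, and the snoRNA genes Gm22347 with 10 and Gm22312 with 9. Nav3, which encodes a microtubule-associated guidance protein, held 12 summits itself. Its 12 distant peaks lay 30969 to 60450 bases away, with 4.59-fold to 11.7-fold enrichment and a median of 12.5 fragments. The 3 others held no summit, where 9.09% of autosomal pseudogenes and 0.549% of autosomal snoRNA genes did.

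Members of the uterine gene lists had distant peaks beside them in a few cases. Of 25 genes of progesterone and estrogen signalling, 2 were the nearest gene of a distant peak: Pgr, and Fkbp5, a chaperone of steroid receptors, with 2 peaks of which the higher reached 7.42-fold. Of 32 autosomal genes of decidualization and implantation, 2 were, Prl3c1 and Prl8a2 with 7 peaks each. The highest for Prl3c1 was a peak 2356 bases wide at 27215585 to 27217940, 12328 bases past the gene, with 34 fragments and 11.1-fold enrichment (7.79 to 15.4). Of 64 developmental transcription factor genes, 5 had 1 peak each. Of these, 3 are described: Foxp1 at 7.42-fold (11 fragments), Tshz2 at 5.91-fold (9 fragments) and Twist2 at 4.79-fold (6 fragments). Of 28 marker genes of smooth muscle, stroma and endothelium, 2 had some. Emcn, an endothelial sialomucin gene, had 5 peaks on its 3′ side of up to 6.71-fold, and Pdgfra, a stromal receptor gene, had 1 of 5.47-fold from 7 fragments. Of 27 imprinted genes and long non-coding RNAs, only Malat1 had 1, at 7.78-fold. For comparison, 495 of 20554 autosomal protein-coding genes (2.41%) were the nearest gene of a distant peak. The lists are small, and gene spacing was not matched.

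The most enriched distant peaks described here stood singly or in clusters of 3. The highest lay on chromosome 13 at 9834259 to 9834655, 41048 bases past the 3′ end of Chrm3, the gene of the muscarinic M3 receptor, and 32615 bases from the long non-coding RNA gene Gm40665. It was 72.3-fold enriched (59.9 to 86.6), from 116 fragments over a background of 0.618. Chrm3 held 7 summits and Gm40665 none. The next lay on chromosome 7 at 130834353 to 130834705, 8635 bases past Btbd16 and 26015 before Plekha1, which encodes a phosphoinositide-binding adaptor. It reached 58.1-fold (46.5 to 71.8) with 84 fragments. On chromosome 16, a peak at 17222182 to 17222537, between Rimbp3 and Hic2, a transcriptional repressor gene, reached 51.3-fold (40.4 to 64.2) with 74 fragments. This peak and the one beside Btbd16 stood at the background floor. Of the 10 highest peaks, 7 are described here.

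The following peaks reached 31.5-fold to 37.9-fold. On chromosome 2, a peak at 98666562 to 98667345 reached 37.9-fold (31.1 to 45.7) with 107 fragments, 35446 bases from the long non-coding RNA gene Gm33780, in a cluster of 3. On mm10, this part of chromosome 2 is known to hold satellite-like repeats that draw excess reads in many assays, and the part of repeats in this peak was not tested. On chromosome 1, a peak at 167340190 to 167340602, 6439 bases past Tmco1, an endoplasmic reticulum calcium channel gene, reached 35.6-fold (26.7 to 46.6) with 51 fragments. On chromosome 6, a peak at 49236467 to 49236750 lay 7333 bases past the 3′ end of the splicing factor gene Tra2a, with the m6A reader gene Igf2bp3 21119 bases away on its other side. It reached 32.2-fold (26.0 to 39.5) with 91 fragments. On chromosome 15, a peak at 86194625 to 86195255, 7687 bases past the long non-coding RNA gene Gm15569, reached 31.5-fold (23.2 to 41.7) with 46 fragments.

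The widest and the deepest distant peaks were mostly other regions than the most enriched ones. The widest, 4441 bases on chromosome 11 at 49014192 to 49018632, lay 19226 bases past 9930111J21Rik2 and was 19.5-fold enriched (14.7 to 25.5) with 52 fragments. The second, 3110 bases on chromosome 8 at 119891767 to 119894876, lay between Klhl36 and Usp10, a deubiquitinase gene, and was 7.67-fold enriched (6.48 to 9.02) with 144 fragments. It was also among the 5 deepest. The other 3 wide peaks lay 7146 bases from the calmodulin-like gene Calml3 (3068 bases, 8.07-fold), 69813 bases from Mir28b (3056 bases, 9.49-fold) and 20326 bases from the pseudogene Gm7042, toward Prl2c3 (2644 bases, 7.84-fold).

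The deepest peak had 168 fragments, at chromosome 3, 5860232 to 5860770, and lay 109189 bases from the pseudogene Gm8797. Its enrichment was 8.65-fold (7.40 to 10.06) over a background of 18.5. The next, with 162 fragments at chromosome 4, 15239832 to 15240586, belonged to a cluster of 6 near Tmem64 and was 7.62-fold enriched (6.50 to 8.88). A peak of 146 fragments at chromosome 14, 32117686 to 32119420, had the highest background of all distant peaks, 38.9, and only 3.68-fold enrichment (3.11 to 4.33). Another on chromosome 14, at 8799697 to 8800509, had 143 fragments and 10.04-fold enrichment (8.47 to 11.8), 112273 bases from the pseudogene Gm20241. The background at the 5 deepest summits ran from 13.3 to 38.9 fragments, against a median of 0.618 over all distant peaks.

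The most remote peaks were thin and narrow. The farthest lay 502842 bases from any gene span, on chromosome 1 at 145794273 to 145794472, and had 6 fragments and 4.79-fold enrichment (2.19 to 9.62). The next was 421868 bases away on chromosome 14, at 82543965 to 82544164, with 7 fragments and 5.47-fold enrichment (2.61 to 10.6). On chromosome 6, 2 peaks lay 398785 and 355424 bases past Nxph1, a secreted neurexin ligand gene, with 8 and 10 fragments. The last of the 5, on chromosome 15, was 378440 bases from the pseudogene Gm2203 and had 8 fragments. These 5 peaks were 200 to 249 bases wide and 4 of them stood at the background floor.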

How the data were processed

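RNA of whole uterus was immunoprecipitated with an anti-m6A antibody (1 library) and compared with input (1 library). The submitters' processing notes name HISAT2 2.2.1, MACS3 3.0.0a7 and the build mm10. The sources used here give neither settings nor how duplicates and reads with several matches were handled. The deposited peak list gives start, end and summit (printed counted from 1), a fold enrichment ratio, a −log10 p-value and q-value at the summit, and a display score that was not used. These values are the authors' own and only describe, rank or filter peaks here. The list carries no strand.

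IP fragments and background were recovered from the deposited fold and p-value, as the whole number of fragments whose Poisson chance gives the −log10 p within 0.001, which succeeded at 100% of distant peaks. In 2000 simulated peaks, 100% were recovered. Intervals are exact 95% Poisson intervals on IP fragments with the background fixed. Copies made by PCR are not independent, so intervals cover counting error only, and library depth is unknown.

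Gene spans (49628) came from RefSeq, GRCm38.p6, the assembly of mm10; 369 rows off the assembled chromosomes or without a position were left out. Strand was taken from the RefSeq promoter table for 27024 genes. No genome sequence was used here, so no peak sequence is shown. Clusters chain summits at most 5000 bases apart.

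Regions named are the 10 most enriched (−log10 q of at least 5), the 5 widest, deepest and farthest, the 5 largest clusters with their extremes and 2 on each side of the limit. Genes named are their neighbours, the 5 nearest to most members, and up to 4 per gene list; those beyond this are the linked runs, the prolactin gaps, the other Pgr peaks and the cluster near Tmem64, chosen after their values were seen. Some regions and genes that these rules name, and those on chromosome 18, are not reported here. The members and lists were chosen with earlier results of these data known. Scripts ran in Python (3.11.15) with the packages scipy (1.17.1), numpy (2.4.6) and pandas (2.3.3), and plots were drawn in matplotlib (3.10.9).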

Additional observations from a re-analysis of the deposited data

How the results depend on the processing

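Among 1808 distant peaks, median depth was 11 or 12 fragments and median width 242 to 247 bases under stricter score limits and other distances. With a −log10 q of at least 5, the median fold was 6.84, 30.6% were clustered and 11 clusters held 5 or more. With a fold of at least 4 these were 6.34, 32.5% and 11. Beyond 10000 bases, 31.2% had a nearest gene with a summit and 55.5% lay on the 3′ side. Beyond 20000 bases, 784 peaks were left, with a median width of 242 bases, 31.6% clustered, 10 clusters of 5 or more, 25.5% with such a nearest gene and 54.7% on the 3′ side. Counting spans of protein-coding genes only gave 3748 peaks, of 273 bases and 13 fragments, 40.8% clustered, with 42 clusters of 5 or more. The share clustered was 17.6%, 40.5% and 49.4% at steps of 1000, 10000 and 50000 bases, with 0, 27 and 42 clusters of 5 or more. No peaks shared start and end, so merging changed nothing. Distance from the whole peak gave 1785 peaks, and leaving out the prolactin gaps 1781 peaks with 35.4% clustered. The 3′ share was 58.9% with only the peak of highest fold in each gap and 59.6% with protein-coding nearest genes. The prolactin setting and all settings for the 3′ share were added after the data were seen. Changes follow from which peaks each setting keeps or joins. No paired analysis was possible because each group held 1 library. Depth limits many of the distant peaks: 46.3% rest on 10 fragments or fewer.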

Other observations

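The rule left out the sex chromosomes. By the same distance, 126 of 1121 peaks on chromosome X were distant (11.2%), a larger share than on any autosome (2.66% to 9.79%). Their medians of 10 fragments, 232.5 bases and 6.16-fold enrichment were close to the autosomal ones, and 32.5% were in clusters. The background floor held 48.4% of them, against 39.2% of autosomal distant peaks. On chromosome Y 45 of 62 peaks were distant (72.6%), with a median of 16 fragments and 66.7% in clusters, and the highest of them reached 86.0-fold. Most of the mouse Y chromosome consists of amplified sequence, and placement of reads there was not examined.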
